A study of Mus musculus with 15 samples.

Results

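The comparison described here sets mouse embryonic stem cells without Ezh2 (Ezh2-KO, genotype Ezh2-/-, 3 replicates) against cells of the line with both Ezh2 alleles flanked by loxP sites (Ezh2-WT, Ezh2 fl/fl, labelled wild type, 3 replicates). All genes with a value in that comparison belong to it, which are 18097 of the 38355 genes in the authors' deposited table. For the other 20258 genes the value is missing, read here as no reads in either group. All cells, of every group, grew on gelatin in 2i medium, which holds an inhibitor of MEK (PD0325901), an inhibitor of GSK3 and LIF and keeps the cells in the naive pluripotent state. Total RNA cleared of small RNA and of 18S and 28S ribosomal RNA was sequenced. The series holds 15 samples in 5 groups of 3, and the remaining groups are Suz12-KO, Ring1A+B-DKO and E14-WT, the wild-type line E14TG2a, against which both of those knockouts were compared. The sources used here do not give how and when Ezh2 was deleted, which exons were removed or whether a line is 1 clone.

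Ezh2 is the main methyltransferase of Polycomb repressive complex 2 (PRC2). With Eed and Suz12 it methylates lysine 27 of histone H3, a mark of silent genes, and Ezh1 can partly stand in for it. Polycomb repressive complex 1 (PRC1), whose ligases Ring1A and Ring1B add ubiquitin to histone H2A, often binds the same genes, many of them CpG-rich promoters of developmental regulators.

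Every value below is a log2 fold change of Ezh2-KO over Ezh2-WT from the authors' deposited table, made by the authors with DESeq2, unless another comparison is named. A value of 1 stands for a 2-fold difference. A gene is said to have risen or fallen only where the authors called it as changed. Each gene has 1 value for the 3 against 3 samples, so its error, the spread between replicates and the depth of each library are unknown here, and a gene without a call is not shown to be equal in the groups. By which criteria genes were called is not stated in the labels. In whole-culture RNA, fewer cells of a type and less RNA per cell cannot be told apart.

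The authors called 32 genes, or 0.177% of the 18097 with a value, of which 24 fell (0.133%) and 8 rose (0.0442%). Protein-coding genes made up 23 of the 24 decreases and 5 of the 8 increases, the other 3 increases being small RNA genes. The called decreases had a median of -1.51 and the called increases one of 1.39. Over all genes the median was -0.01 and the SD across genes 0.29, with 98% of genes between -0.81 and 0.72. By size alone, 81 genes stood at -1 or below (0.448%) and 41 at 1 or above (0.227%). At 1.5 the imbalance was wider, with 16 genes at -1.5 or below (0.0884%) and 3 at 1.5 or above (0.0166%), and no gene reached 2 while 3 reached -2. The smallest called change was that of Sgk1 at 1.06, and the largest change without a call was that of Atp2b2 at -1.56.

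**Figure D1:**
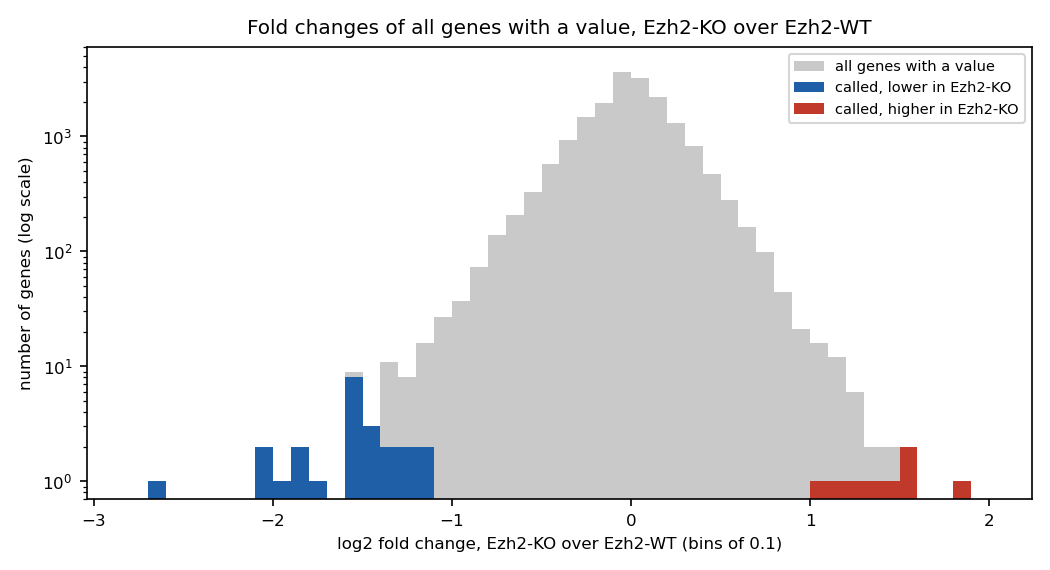
Number of genes (log scale) by log2 fold change of Ezh2-KO over Ezh2-WT in bins of 0.1, for all 18097 genes with a value (grey) and for those the authors called lower (blue, 24) or higher (red, 8) in Ezh2-KO. The left tail is longer, reaching -2.68, while the right tail ends at 1.86, and grey bars beside the coloured ones are genes of like size without a call.

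The labels were checked against the deleted gene and against marker genes first. Ezh2 itself (chromosome 6, 47530139 to 47595341, minus strand, GRCm38) stood at -0.14 without a call, a value over the whole gene that includes any exons left in place and so checks the label little. All 13 PRC2 core and accessory subunits on the list used had a value, 0 were called, and they ranged from Phf19 at -0.45 up to Phf1 at 0.48 around a median of -0.14. Ezh1, the other methyltransferase of the complex, stood at -0.30 and Eed at -0.21. The 8 markers of embryonic stem cells all had a value, 0 were called and they lay between -0.34 and 0.57, 4 of them above 0. Of 8 markers of feeder fibroblasts 5 (Dcn, Lum, Col1a2, Postn and Col3a1) had no reads in either group, and the other 3 lay between -0.83 and 0.23. Of 6 markers of primitive endoderm Foxa2 and Sox17 had no reads in either group. The other 4 (Gata4, Gata6, Pdgfra and Dab2) lay between -0.62 and 0.05, 1 of them above 0 and 0 called.

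The called decreases are given first. The 4 genes with the largest sizes were Gata2 at -2.68, which encodes a transcription factor of blood progenitors, Tgfbi at -2.10, whose product is secreted into the matrix, Sdc3 at -2.10, a syndecan, and App at -1.90, the source of the amyloid peptide. Beyond these, the authors' deposited table calls Ptprs at -1.28, a receptor phosphatase that binds heparan and chondroitin sulphate chains, and Adgre5 at -1.45, an adhesion receptor known as CD97. Grk3, a kinase that switches off active G-protein-coupled receptors, fell by 1.51. Adcy1, an adenylyl cyclase stimulated by calcium, fell by 1.57 and Fmnl1, a formin that assembles actin filaments, by 1.86. Grb10, an imprinted adaptor that restrains insulin receptor signalling, fell by 1.22. Rab3il1, an exchange factor for RAB proteins, fell by 1.72.

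Enzymes were also called. Eno2, the neuronal form of the glycolytic enzyme enolase, fell by 1.51 and Acadl, which starts the mitochondrial breakdown of long-chain fatty acids, by 1.45. Acss1, which makes acetyl-CoA from acetate in mitochondria, fell by 1.30. Rrm2b, the p53-inducible small subunit of ribonucleotide reductase, fell by 1.41 and is the only one of the 32 called genes with near-identical annotated transcripts elsewhere (Gm48789 and Gm8616), so its reads could be divided among them. The calcium-binding protein gene S100a1 fell by 1.53.

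Regulators of transcription among the decreases, besides Gata2, were Bhlhe41 at -1.58, a repressor of the circadian system, Ripply3 at -1.58, a co-repressor of T-box factors, and Mn1 at -1.51, a transcriptional co-activator. Sohlh2, a helix-loop-helix factor of early germ cells, fell by 1.33. The Notch ligand gene Dll1 fell by 1.80 and Klhl42, an adaptor of a cullin ubiquitin ligase, by 1.16. The non-coding gene E330020D12Rik, on chromosome 1, had the smallest size among the decreases at -1.13.

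The 8 increases fell into protein-coding genes and small RNA genes. S100a6, which encodes a calcium-binding protein, stood highest at 1.86, and Dpysl5, a microtubule-associated protein of growing axons, at 1.53. Ccnd1, the cyclin D1 gene, rose by 1.31, Gsto1, a glutathione transferase that also reduces dehydroascorbate, by 1.19 and Sgk1, a kinase induced by glucocorticoids and serum, by 1.06. Mir5099, Rny1 and Mir292, all genes of small RNAs, rose by 1.57, 1.47 and 1.30. Since RNA of small size was cleared from the samples, reads on these short genes may come from longer precursors or leftover fragments, which was not tested. Another annotated gene overlaps 16 of the 32 called genes, and for 12 it lies on the opposite strand, among them App, Sdc3, Fmnl1, Dll1, Gsto1 and Ccnd1. Whether reads were counted by strand is not stated in the labels, so reads of such pairs may be mixed.

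**Figure D2:**
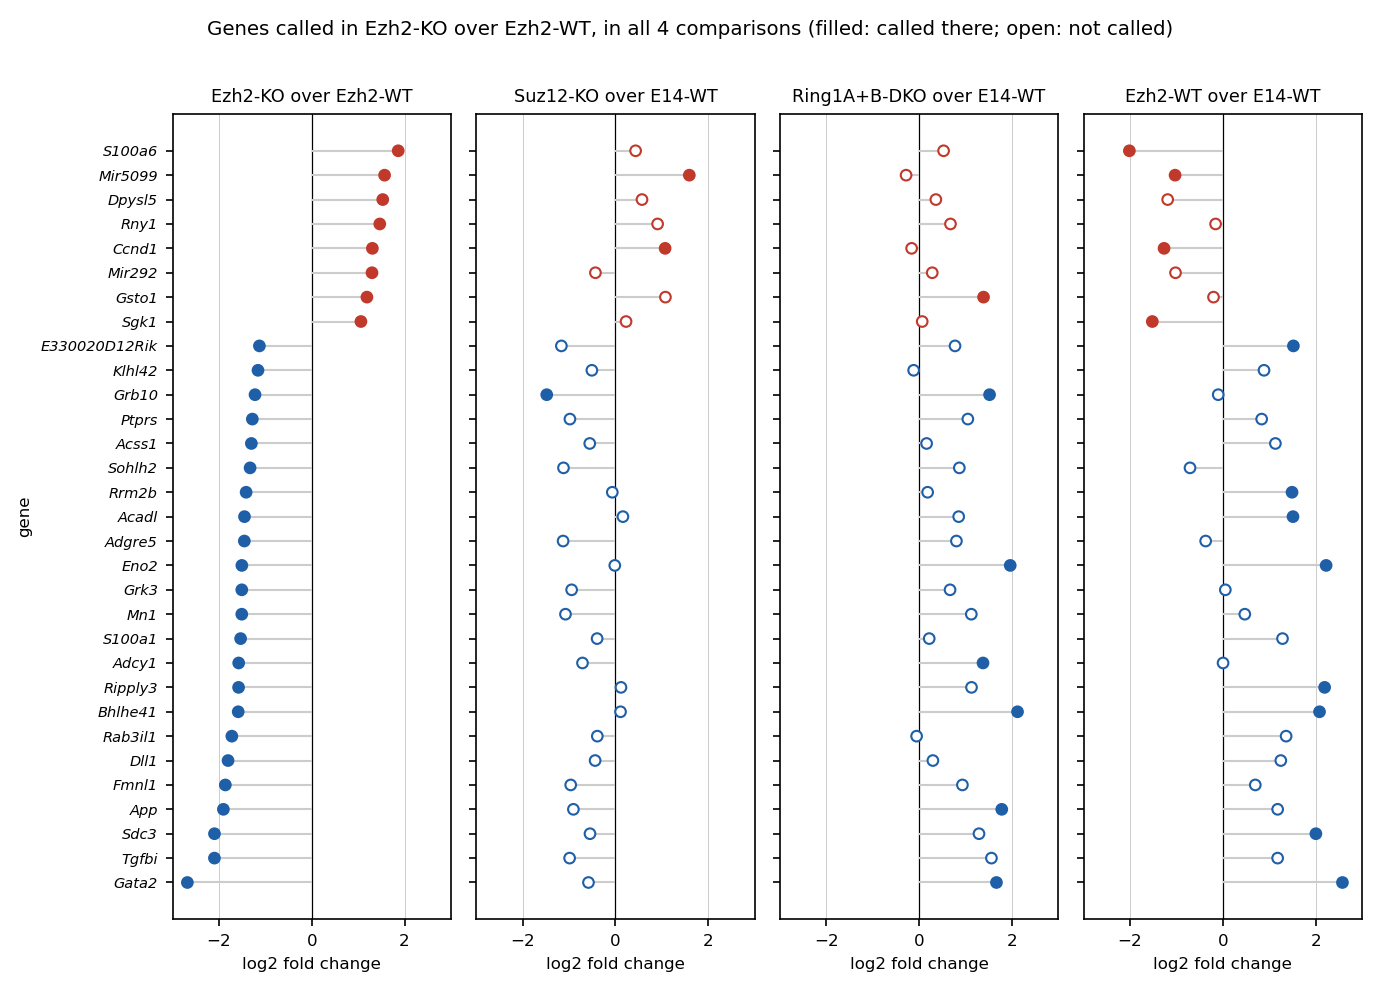
Log2 fold changes (x axes) of genes called in Ezh2-KO over Ezh2-WT, 1 gene per row with 1 called decrease not shown, in that comparison and in the other 3 of the deposited table. Red genes rose and blue genes fell in Ezh2-KO, filled points are called in the comparison of their panel, and open points are not. Most blue points lie left of 0 in Suz12-KO and right of 0 in Ring1A+B-DKO.

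Most relatives of the called genes had no call, which holds for genes at large too, since 0.177% of all genes were called. Relatives were listed for 26 of the called genes, and of the 63 relatives with a value the authors' deposited table calls 1, S100a6, whose direction is opposite to that of its relative S100a1. Without a call, 2 further relatives reached a size of 1, among them Bhlhe40 at -1.10, the closest relative of Bhlhe41. Among syndecans, which carry heparan sulphate chains at the cell surface, Sdc3 fell by 2.10 while Sdc1 stood at 0.65, Sdc2 at 0.17 and Sdc4 at -0.49. The relatives of App, Aplp1 and Aplp2, stood at -0.37 and -0.34. The other formins Fmnl2 and Fmnl3 stood at 0.46 and 0.20.

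The common enolase Eno1 stood at 0.01 and the muscle form Eno3 at 0.05, beside the called decrease of Eno2. The 8 relatives of Acadl with a value ranged from Acadsb at -0.56 up to Acadvl at 0.31, and Acadm at 0.07 and Acadvl were the 2 above 0. The cytosolic partner of Acss1, Acss2, stood at 0.16. The large subunit Rrm1 and the S-phase small subunit Rrm2 stood at 0.28 and 0.19, beside the called decrease of Rrm2b. For the increases, Ccnd3 stood at -0.01 and Ccnd2 had no reads in either group, while Sgk2 and Sgk3 stood at 0.34 and -0.62, Gsto2 at 0.25, and Dpysl2 and Dpysl3 at 0.30 and -0.55. No difference between a called gene and its relatives could be tested without errors per gene.

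The promoters of the called genes were read for CpG content, the sequence feature by which Polycomb targets are often recognised. RefSeq promoter windows on GRCm38.p6, from 250 bases before the start to 50 after it, were matched for 21 of the 32 called genes and for 11624 genes with a value. In a ratio of observed to expected CpG the 17 windows of called decreases had a median of 0.77, and 13 of them (76.5%) reached 0.6. The 4 windows of called increases had a median of 0.46 and 1 of them reached 0.6 (25%). Over all 11624 genes the median was 0.75 and 68.6% reached 0.6, so the decreases lay near the background, and 4 windows are too few to set the increases against it. With the window of the highest ratio for each gene, an alternative chosen after seeing the data, 2 of the 4 increases (50%, median 0.63) and 13 of the 17 decreases (76.5%, median 0.80) reached 0.6, against 71.5% of all genes. The dinucleotide CG, the same on both strands, occurred at least once in 99.3% of all windows. The following 4 windows are examples, with every CG in capitals, and do not cover the range among called genes, which was 0.05 to 0.97.
Gata2, chr6:88193641-88193940, plus strand: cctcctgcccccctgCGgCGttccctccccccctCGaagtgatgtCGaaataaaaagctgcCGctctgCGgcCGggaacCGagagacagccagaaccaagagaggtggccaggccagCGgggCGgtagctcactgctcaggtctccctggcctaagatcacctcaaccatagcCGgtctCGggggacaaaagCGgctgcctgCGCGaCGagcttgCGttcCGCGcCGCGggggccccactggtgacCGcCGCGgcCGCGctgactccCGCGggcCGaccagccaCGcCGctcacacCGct
Sdc3, chr4:130792287-130792586, plus strand: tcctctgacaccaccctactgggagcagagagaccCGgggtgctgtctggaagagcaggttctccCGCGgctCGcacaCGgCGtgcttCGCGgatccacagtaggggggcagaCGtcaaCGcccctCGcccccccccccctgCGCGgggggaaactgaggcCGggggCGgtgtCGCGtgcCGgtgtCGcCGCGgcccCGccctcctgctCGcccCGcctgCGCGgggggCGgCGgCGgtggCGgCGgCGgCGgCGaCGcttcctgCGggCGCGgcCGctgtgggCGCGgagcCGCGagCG
Dpysl5, chr5:30711314-30711613, plus strand: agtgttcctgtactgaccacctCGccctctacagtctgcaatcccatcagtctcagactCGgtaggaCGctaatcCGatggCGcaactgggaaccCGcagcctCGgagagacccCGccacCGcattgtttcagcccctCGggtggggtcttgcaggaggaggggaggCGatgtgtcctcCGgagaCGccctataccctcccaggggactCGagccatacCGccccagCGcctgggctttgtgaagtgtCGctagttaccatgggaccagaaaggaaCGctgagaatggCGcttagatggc
S100a6, chr3:90612644-90612943, plus strand: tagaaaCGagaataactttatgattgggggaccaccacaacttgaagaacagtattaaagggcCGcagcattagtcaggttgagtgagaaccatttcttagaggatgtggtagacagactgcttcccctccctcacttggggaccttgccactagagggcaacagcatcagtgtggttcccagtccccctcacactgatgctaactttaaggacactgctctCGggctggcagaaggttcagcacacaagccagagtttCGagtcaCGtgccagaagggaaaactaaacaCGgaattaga

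Gata2 and Sdc3, among the 3 largest decreases, held 32 and 44 CpG in these windows, at ratios of 0.90 and 0.97. Tgfbi, also among those 3, held 22 at 0.73 in a window not printed here. S100a6 and Dpysl5, among the 3 largest increases, held 6 and 19, at 0.33 and 0.68. In the window used, Rab3il1, a decrease, held 1 CpG at a ratio of 0.05, but with the window of the highest ratio for each gene the lowest ratio among the decreases was 0.40, and the window of Sgk1, an increase, held 3 at 0.21. Over protein-coding genes the medians lay close together in every CpG class, at -0.03 under a ratio of 0.3 (1292 genes), -0.04 between 0.3 and 0.6 (2019 genes), -0.02 between 0.6 and 0.9 (4841 genes) and -0.03 at 0.9 or more (2818 genes). Of the calls in these classes, 13 decreases and 1 increase were in the upper 2 classes. The lower 2 classes held 3 decreases and 3 increases. The upper 2 classes held 14 of the 20 calls (70%) and 7659 of all 10970 protein-coding genes (69.8%), so the calls lay near the background. By direction the share was 13 of 16 decreases (81.25%) and 1 of 4 increases (25%). With 4 increases, a split by direction cannot be judged.

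In the authors' deposited table the 7 hairpin genes of the miR-290 cluster, which lie within 2.22 kb on chromosome 7 and make the microRNAs most typical of mouse embryonic stem cells, all had values above 0, against 47.8% of all genes. Their values were 0.80 for Mir290a, 1.07 for Mir291a, 1.30 for Mir292, 1.08 for Mir291b, 1.12 for Mir293, 0.91 for Mir294 and 0.91 for Mir295. The authors called Mir292 alone. These are reads on the hairpin genes and not levels of the mature microRNAs, and the 7 genes are neighbours in 1 transcript unit, so they are not separate observations. In Suz12-KO over E14-WT, which shares no library with this comparison, 6 of the 7 lay below 0, with a range of -0.62 to 0.53 and a median of -0.34. In Ring1A+B-DKO over E14-WT they ranged from -0.37 up to 1.11. In Ezh2-WT over E14-WT they ranged from -1.14 up to -0.62, and those values rest on the same Ezh2-WT libraries.

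The mature sequences that these hairpins carry, from RefSeq (GRCm38.p6), show why the cluster is treated as a family. Capitals mark the seed, bases 2 to 8, which pairs with target transcripts, and the first 3 sequences have the same one.
mmu-miR-291a-3p: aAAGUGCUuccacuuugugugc
mmu-miR-294-3p: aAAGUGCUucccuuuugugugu
mmu-miR-295-3p: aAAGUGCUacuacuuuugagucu
mmu-miR-290a-3p: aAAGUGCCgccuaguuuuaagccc
mmu-miR-291b-3p: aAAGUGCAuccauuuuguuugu
mmu-miR-292a-5p: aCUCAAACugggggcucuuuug
mmu-miR-293-5p: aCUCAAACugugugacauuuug

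The seed AAGUGCU of miR-291a-3p, miR-294-3p and miR-295-3p is the one by which the family is best known, and miR-290a-3p and miR-291b-3p do not carry it. The 5p arms of Mir292, the called hairpin gene, and of Mir293 share another seed, CUCAAAC, also found in miR-290a-5p. The hairpins that carry the shared 3p seed, Mir291a, Mir294 and Mir295, had values of 1.07, 0.91 and 0.91, within the range of the other 4. Mir292 overlaps the antisense genes Mir292b and Nlrp12. Overlaps were looked up for called genes only, so those of the other hairpin genes are not given.

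**Figure D3:**
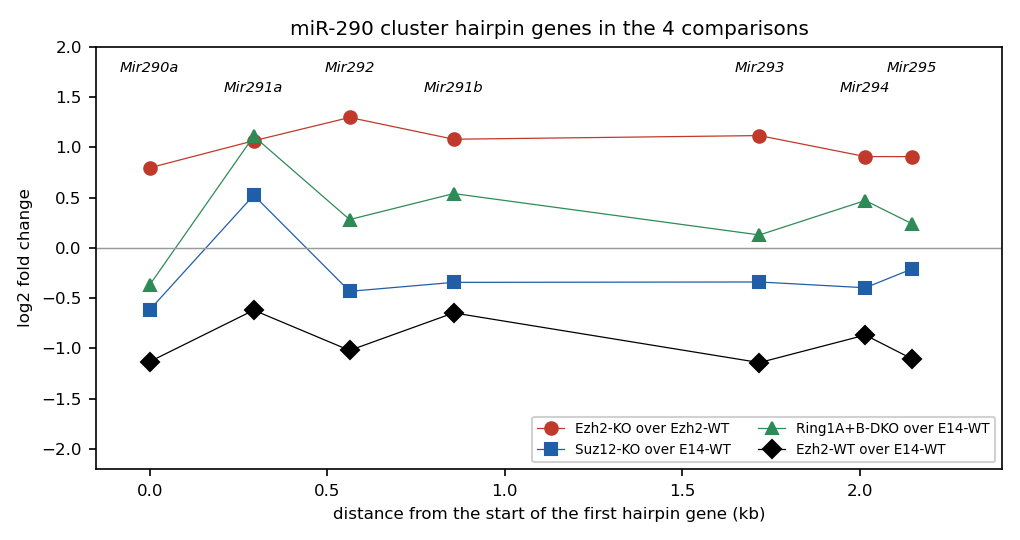
Log2 fold change (y axis) of the 7 miR-290 cluster hairpin genes by distance from the start of the first one in kb (x axis), in the 4 comparisons of the deposited table. Ezh2-KO over Ezh2-WT (red) lies between 0.80 and 1.30 at every hairpin and Ezh2-WT over E14-WT (black), which shares the Ezh2-WT libraries, between -1.14 and -0.62.

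Small nucleolar RNA genes, whose products guide chemical modification of ribosomal RNA, had mostly positive values without a single call. Of 306 with a value 82.4% stood above 0, with a median of 0.21, and 41 stood at 0.5 or above (3.58% of all genes did) while none stood at -0.5 or below (4.78% of all genes). The class ranged from Gm25615 at -0.39 up to Gm25500 at 1.06. Of the genes with a Snora symbol, whose products guide pseudouridylation, 27 of 27 stood above 0 (median 0.45, highest Snora41 at 0.75), and of those with a Snord symbol, whose products guide 2′-O-methylation, 50 of 53 (median 0.25). By comparison, 64.8% of 290 snRNA genes, 61.9% of 223 miRNA genes and 45.6% of 14047 protein-coding genes stood above 0, with medians of 0.06, 0.06 and -0.03. The snoRNA median was 0.11 in Suz12-KO over E14-WT, 0.09 in Ring1A+B-DKO over E14-WT and 0.21 in Ezh2-WT over E14-WT, which shares libraries with this comparison. Without the 25 snoRNA genes that had reads in Ezh2-KO but in neither wild-type line it was 0.25. Many of these genes lie in introns and their RNA is short, so how much small RNA the clearance step left in each library bears on these values, and its part in them was not tested.

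**Figure D4:**
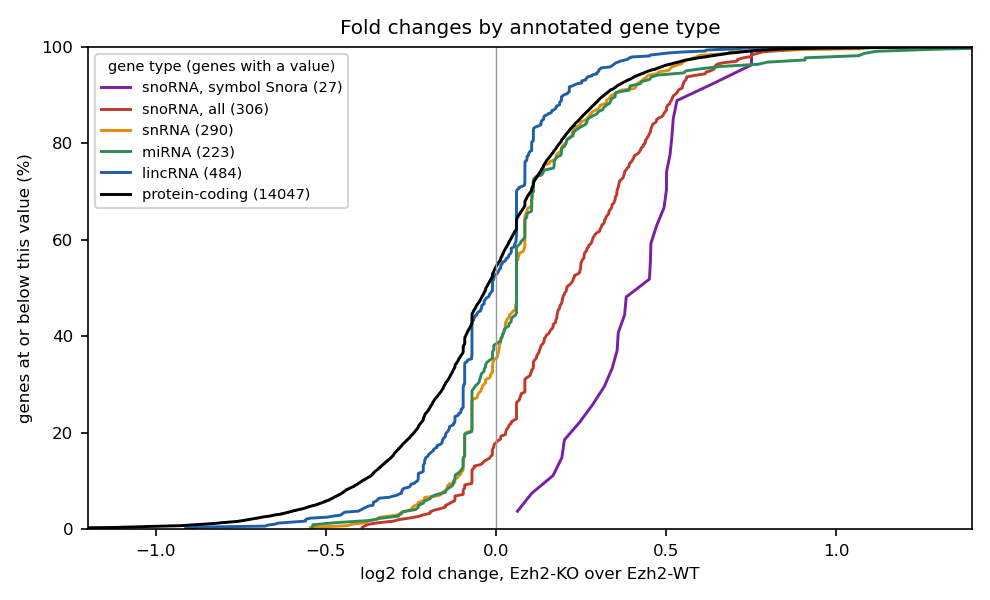
Percentage of genes (y axis) at or below each log2 fold change of Ezh2-KO over Ezh2-WT (x axis), 1 line per annotated gene type, with the number of genes in the legend. The lines of all snoRNA genes (306) and of the Snora genes (27) run to the right of those of protein-coding (14047), lincRNA, miRNA and snRNA genes.

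Of 12 genes for Y RNAs, RNase RNAs, minor spliceosomal RNAs and the like, 11 stood above 0 with a median of 0.36, and 1, Rny1, was called in the authors' deposited table. Rny1 (chromosome 6, 47788069 to 47788180) and Rny3 at 0.93, genes for RNAs bound by the Ro60 protein, lie 193 and 186 kb from Ezh2 on the same chromosome. The gene nearest to Ezh2 on its other side, Cul1, 4 kb away, stood at 0.36, and Pdia4, the neighbour of Rny1, at 0.01. In Suz12-KO over E14-WT Rny1 stood at 0.91 and Rny3 at 0.84 without calls. Whether the place of these genes near Ezh2 bears on their values was not tested. Replication-dependent histone genes, whose messages lack a poly(A) tail, had 37 of 48 members above 0 and a median of 0.16, with 0 called and Hist1h1t highest at 1.14 and Hist3h2ba next at 1.09.

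Groups of genes, among them some small RNA and other non-coding genes, were described by lists, chosen with earlier results of these data known. The 39 lists hold 861 genes, of which 686 had a value and 22 were called, and 19 lists had 0 calls. For lists below, the number called stands beside the 0.133% of all genes that fell and the 0.0442% that rose, and the median beside -0.01 for all genes. Because the lists were chosen with earlier results known, a number of calls above these shares does not show that a list is enriched. The Notch pathway had 2 decreases and 0 increases among 20 members, with 4 above 0 and a median of -0.19. They were Dll1 and Ripply3, whose product is a co-repressor of T-box factors and no core member of the pathway. Lfng, a glycosyltransferase that tunes the Notch receptor, stood at -1.04 and the ligand Jag2 at -0.77, whereas the ligand Jag1 and the receptor Notch4 stood at 0.76 and 0.69, all 4 uncalled.

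Targets and feedback genes of the MEK-ERK pathway, which 2i medium blocks at MEK, had 18 of 23 members above 0 and a median of 0.32 in the authors' deposited table, with 1 increase, Ccnd1, and 0 decreases. The immediate early genes Fos and Fosb stood at 0.98 and 0.68, and the feedback inhibitors Dusp6 and Spry4 at 0.83 and 0.67, all uncalled. Dusp4, another phosphatase of the pathway, stood the other way at -1.22, as did the feedback genes Spry1 at -0.56 and Spry2 at -0.26, all uncalled. The median of the same list in Suz12-KO over E14-WT was -0.01, where Ccnd1 was called at 1.07 and Dusp6 stood at 0.98 but Fos at -0.06.

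Ccnd1 was also the 1 called increase among 31 beta-catenin targets and WNT pathway genes (median -0.01) and among 14 D-type cyclins, inhibitors of cyclin-dependent kinases and pocket proteins (median -0.26). In the WNT list the target Axin2 stood at 0.88 and the repressor Tcf7l1 at 0.80, and the receptor Fzd7 at -1.07. In the cell cycle list Cdkn1a, which encodes the inhibitor p21, stood at -0.72.

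Matrix genes had the lowest median of the 39 lists over all members with a value. Over members with a value of their own the median of matrix genes was -0.408 (19 genes). By that measure GATA factors (2 genes, -1.65), primitive and visceral endoderm genes (7, -0.53) and feeder fibroblast genes (5, -0.409) stood lower. Of 25 collagens, laminins and other matrix genes, 6 stood above 0 with a median of -0.28, and 1, Tgfbi, fell. Frem2, a protein of basement membranes, stood at -1.39 and the collagen gene Col4a2 at -0.95, both uncalled. The same list had a median of -0.74 in Suz12-KO over E14-WT, in which Tgfbi stood at -0.99, Frem2 at -1.34 and Lamb1 at -1.80. Tgfbi was also the 1 call among 34 genes of the Nodal, TGF-beta and BMP pathways (median -0.03), where the Nodal antagonist Lefty2 stood at 1.20 and the receptor Acvr2b at 0.71. Among 22 syndecans, glypicans and heparan sulphate enzymes, 6 stood above 0 (median -0.19) and Sdc3 alone fell. Of 7 feeder fibroblast genes with a value, which include matrix genes, 0 were called, Pdgfrb was lowest at -0.83 and the median was -0.28.

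Annexins and S100 proteins, which bind calcium, included calls in both directions, with S100a6 higher and S100a1 lower among 14 genes (median -0.03). Their genes lie 98.5 kb apart on chromosome 3. Of the other S100 genes, S100a13, S100a14 and S100a16 stood at -0.30, 0.27 and 0.07. Anxa2, which forms a complex with the S100a10 protein, stood at 1.12 and S100a10 at 0.68, while Anxa5 stood at -1.13.

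Developmental regulators had 0 called increases in the authors' deposited table, which is near the 0.0442% of all genes that rose. None of 18 Hox genes with a value (of 39 listed) and none of 37 other homeobox, Pax, Sox and T-box genes was called, with medians of -0.09 and -0.04. Many of these values are shared with other genes, and over the 3 Hox genes and 14 other regulators with a value of their own the medians were -0.07 and 0.16. Among the 37, Ebf1 was highest at 1.21 and Tbx3 lowest at -0.66. Among 5 GATA factors Gata2 fell and Gata4 stood at -0.62. Primitive and visceral endoderm genes (20, median -0.08, and -0.53 over the 7 with a value of their own), genes of mesoderm and the primitive streak (10, median 0.00) and H3K27 demethylases with MLL-family enzymes (14, median -0.03) had 0 calls, and Gata2 was the 1 call among 14 trophoblast genes (median -0.02). The 14 helix-loop-helix genes spread widely, with Bhlhe41 called and uncalled values of 1.43 for Id3, 1.31 for Msc, 1.17 for Olig2, -1.10 for Bhlhe40 and -1.03 for Ascl2. Id3, Id4, Id1 and Id2 encode partners that keep other helix-loop-helix proteins off DNA, and all had values above 0 (0.55, 0.41 and 0.37 for the other 3).

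Pluripotency genes had 0 calls. The 20 naive genes had a median of -0.17, with Tbx3 at -0.66 and Klf5 at -0.54 at one end and Dppa3 at 0.66, Prdm14 at 0.62 and Nanog at 0.51 at the other. Of 14 general pluripotency genes 11 stood above 0 (median 0.20), Dnmt3l at 0.82 and Utf1 at 0.57 being highest and Pou5f1 lowest at -0.31. Among 12 formative and primed genes Grhl2, an epithelial transcription factor, stood at -1.32, Sox4 at -0.82 and Dnmt3a at -0.70, while Otx2 stood at 0.66. Of 14 DNA methylation enzymes 0 were called, and the de novo methyltransferase genes Dnmt3a and Dnmt3b stood at -0.70 and 0.47 with Uhrf1 at -0.50. Of 20 PRC1 subunits 0 were called, with Phc1 at -0.75, Phc3 at -0.63 and Bmi1 at 0.54.

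**Figure D5:**
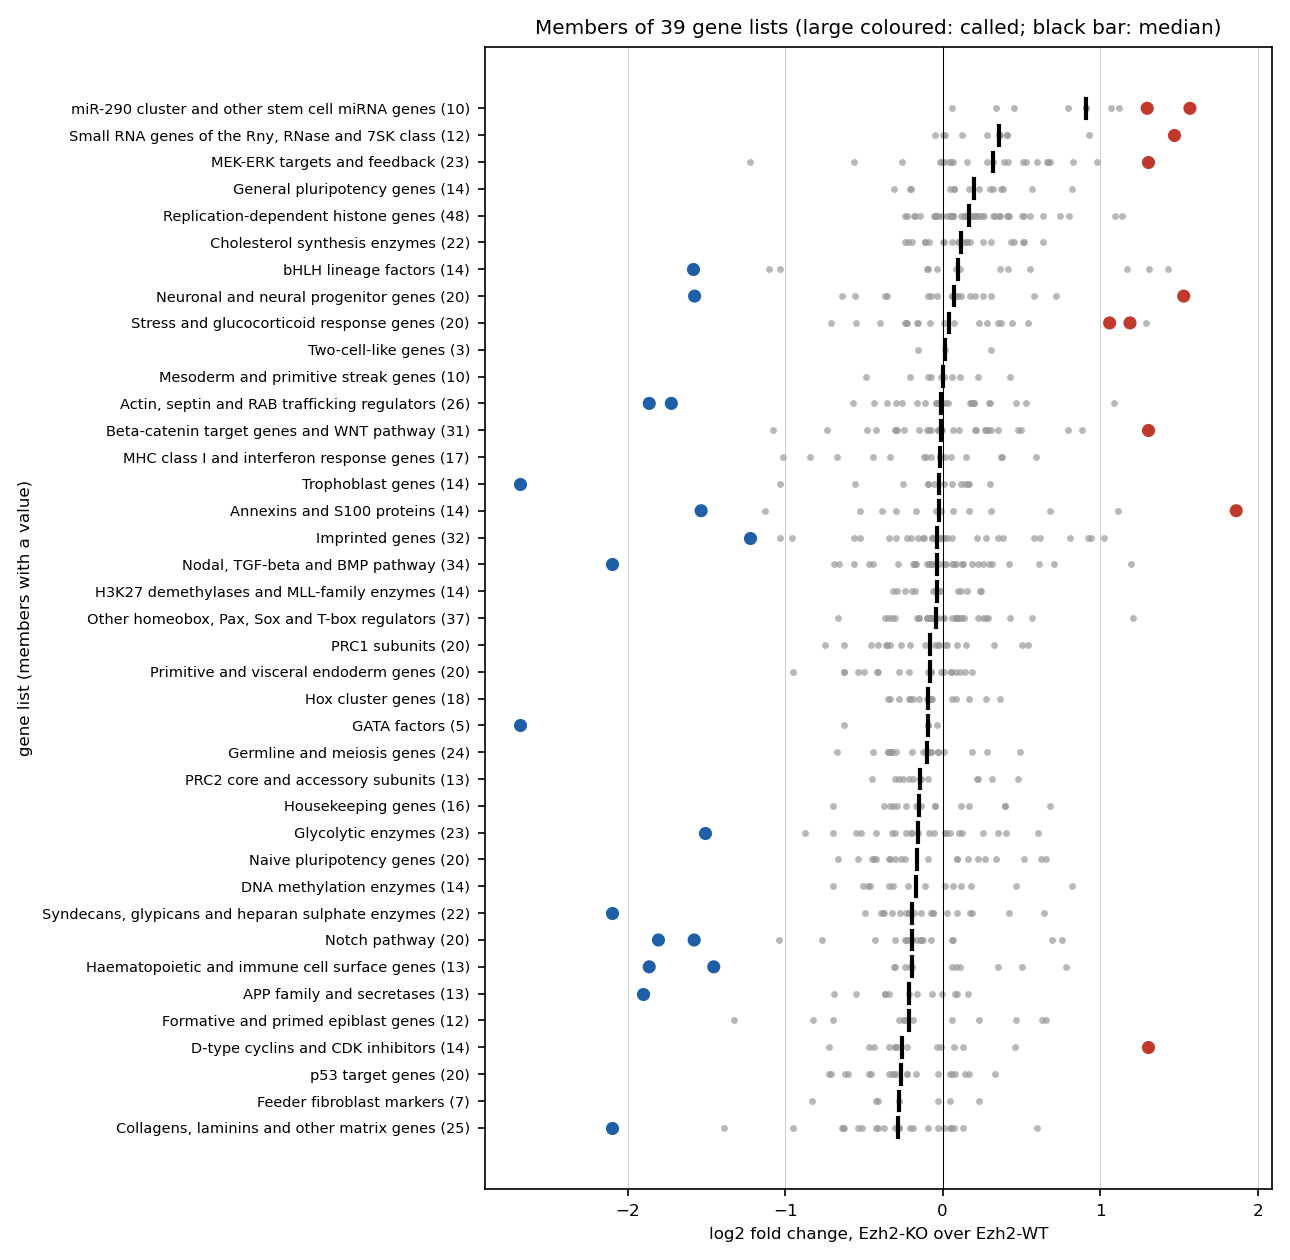
Log2 fold changes of Ezh2-KO over Ezh2-WT (x axis) for the members of 39 gene lists (rows, ordered by median, with the number of members with a value). Grey points are members without a call, large red and blue points are called higher and lower genes, and black bars are medians, which run between 0.91 for stem cell miRNA genes and -0.28 for matrix genes.

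Neuronal genes held 1 call each way among 20, Dpysl5 higher and Adcy1 lower, with a median of 0.07. Map2 and Tubb3, genes of neuronal microtubules, stood at 0.72 and 0.58 and the neurofilament gene Nefl at -0.64. Of 5 markers used for neural cells 4 had a value, and these lay between 0.21 and 0.72 with 0 called. Among 13 haematopoietic and immune genes Fmnl1 and Adgre5 fell (median -0.20), and the kinase gene Lck stood at 0.78. App was the 1 call among 13 genes of its family and its processing enzymes, where 3 stood above 0 (median -0.21), with the secretase subunit Psen2 at -0.69. Among 26 regulators of actin, septins and RAB trafficking Fmnl1 and Rab3il1 fell (median -0.01), and Vim, which encodes vimentin, stood at 1.09.

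Imprinted genes included 1 call among 32, the decrease of Grb10, in the authors' deposited table (median -0.03). Mirg, Sfmbt2, Plagl1 and Mest stood at 1.02, 0.94, 0.92 and 0.81, and Ascl2 and Gnas at -1.03 and -0.96, all uncalled. Of 24 germline genes 4 stood above 0 (median -0.10, 0 called), Dazl being lowest at -0.67, and Sohlh2 is not on that list. Of 20 p53 targets 6 stood above 0 (median -0.26, 0 called), with Tnfrsf10b at -0.71 and Aen at -0.62, and Rrm2b is not on that list. Among 20 stress and glucocorticoid response genes Gsto1 and Sgk1 rose (median 0.04), and Chac1, which breaks down glutathione, stood at 1.29 and Ddit3 at -0.71, uncalled.

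Of 23 glycolytic enzymes Eno2 alone was called (median -0.16), with Hk1 at -0.87 and Pgk1 at -0.70 against Ldha at 0.61. Of 22 cholesterol synthesis genes 16 stood above 0 (median 0.12, 0 called), with Nsdhl highest at 0.64. The class I genes H2-D1 and H2-K1 and the peptide transporter gene Tap1 stood at -1.02, -0.84 and -0.67 within an interferon and antigen presentation list of 17 with 0 calls and a median of -0.02. Of 16 housekeeping genes 0 were called, and they had a median of -0.15.

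In all, 90 genes had a size of at least 1 without a call, 57 lower and 33 higher, some of them members of the lists above. Atp2b2, a pump that removes calcium from cells, led them at -1.56, followed on that side by Frem2 at -1.39, Adssl1, a muscle enzyme of AMP synthesis, at -1.37 and Tspo2 at -1.34. Evc, a protein at the base of cilia, stood at -1.33, Sema4g, a semaphorin, at -1.30 and Car13, a carbonic anhydrase, at -1.27. On the other side Id3 came first at 1.43 and Msc second at 1.31, and the bile acid transporter subunit Slc51a, the aldose reductase gene Akr1b3 and the fatty acid receptor gene Ffar3 stood at 1.24, 1.23 and 1.22. Ccn1, a matrix protein of immediate early response, stood at 1.20, and E2f8, a repressor of cell cycle genes, at 1.12. Tpcn2, an ion channel of endolysosomes whose gene lies 246.6 kb from Ccnd1, stood at 1.17.

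The called genes were then read in the other Polycomb knockouts, compared with E14-WT in the authors' deposited table. The signs in those columns were turned, against the order in their headers, after a check on missing values, and the directions below rest on that check. Those comparisons share the E14-WT libraries with each other and none with Ezh2-KO over Ezh2-WT, and differences between lines enter them. In Suz12-KO, which also lacks a core subunit of PRC2, 21 of the 24 genes that fell in Ezh2-KO had values below 0, against 53.6% of all genes, and 16 of the 24 stood at -0.5 or below, against 5.52% of all genes. Grb10 at -1.48 was the 1 of them called lower there (0.114% of all genes). Those nearest to it were E330020D12Rik at -1.17, Adgre5 at -1.13, Sohlh2 at -1.12 and Mn1 at -1.08, uncalled. Eno2, Rrm2b, Bhlhe41, Ripply3 and Acadl stood between -0.07 and 0.16 in Suz12-KO. Of the 8 genes that rose in Ezh2-KO, 7 had values above 0 in Suz12-KO, against 46.4% of all genes, and Mir5099 at 1.59 and Ccnd1 at 1.07 were called higher (0.0865% of all genes). Mir292 was the exception at -0.43. The shares of all genes include weakly expressed genes, whose values lie near 0. In Ezh2-KO over Ezh2-WT 31.4% of values are shared by several genes, and 0 of these were called. Expression level was not matched, so its part in these contrasts was not tested.

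In Ring1A+B-DKO, which lacks both ligases of PRC1, 22 of the 24 genes that fell in Ezh2-KO had values above 0, against 55.4% of all genes, and 18 stood at 0.5 or above, against 18.7%. The authors called 6 of them higher there, against 2.38% of all genes. They were Bhlhe41 at 2.12, Eno2 at 1.96, App at 1.78, Gata2 at 1.67, Grb10 at 1.52 and Adcy1 at 1.38. The other 2, Rab3il1 and Klhl42, stood at -0.05 and -0.12. Grb10 was thus called in all 3 knockouts, lower in Ezh2-KO and Suz12-KO and higher in Ring1A+B-DKO. Of the 8 genes that rose in Ezh2-KO, 6 had values above 0 and 1, Gsto1 at 1.39, was called higher. As for Suz12-KO, the shares of all genes include weakly expressed genes with values near 0, and expression level was not matched. No difference between these comparisons could be tested without errors per gene.

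Ezh2-WT over E14-WT rests on the same Ezh2-WT libraries as the comparison described here, so a gene high in those 3 libraries would appear low in Ezh2-KO and high between the wild-type lines. The values are therefore given side by side only. In Ezh2-WT over E14-WT the 24 genes that fell in Ezh2-KO had a median of 1.18 and a range of -0.71 to 2.58, and the 8 that rose had a median of -1.11 and a range of -2.01 to -0.16. The genes that follow are examples of large and of small values. For genes that fell in Ezh2-KO, Eno2 had -1.51 in Ezh2-KO over Ezh2-WT and 2.23 in Ezh2-WT over E14-WT, Rrm2b -1.41 and 1.49, Acadl -1.45 and 1.51, and Gata2 -2.68 and 2.58, the second value being called in each case. Adcy1 had -1.57 and 0.01, Grk3 -1.51 and 0.05, and Grb10 -1.22 and -0.10, the second value being uncalled. For genes that rose, S100a6 had 1.86 and -2.01 and Sgk1 1.06 and -1.52, called in both, while Rny1 had 1.47 and -0.16 and Gsto1 1.19 and -0.20, uncalled between the wild-type lines. Over all genes the wild-type lines gave calls for 0.607%. Whether a called gene differs through the loss of Ezh2 or through the Ezh2-WT libraries cannot be told apart from these values.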

How the data were processed

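RNA-seq libraries of 3 replicates per group, biological by the series' design text, were processed by the authors with TopHat (alignment), featureCounts (counting) and DESeq2 (comparison) on GRCm38 (mm10), per the submitters' processing notes. The sources used here do not give versions or filters. The authors deposited 1 table with a log2 fold change and a true or false call per gene and comparison, with Ensembl release 72 identifiers, per the file headers. It holds no values per sample, so the planned tests with replicates could not be run, and the authors' call was used.

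A missing value was read as no reads in either group. All 922 genes with reads in Ezh2-KO and in neither wild-type line were then positive, so the column is Ezh2-KO over Ezh2-WT. By the same rule the other 3 columns are E14-WT over the named group, which goes against their headers, and their signs were turned. Those 922 genes had a median of 0.085, so values of weakly expressed genes lie near 0, and 31.4% of values are shared by several genes, 0 of them called.

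Symbols came from GENCODE mouse release 21 (95.4% of identifiers matched). Transcripts with a near-identical copy elsewhere were found by blastn 2.17.0 (95% identity over at least 100 bases and 50% of the shorter transcript). Members and lists were chosen with earlier results of these data known. Genes named are PRC2 subunits, all called genes, the 15 largest changes without a call in each direction, up to 4 members per list and the miR-290 cluster. Relatives, neighbours, markers, extreme snoRNA genes and further list members were chosen after their values were seen. Tools were Python 3.11.15 with pandas 2.3.3, numpy 2.4.6, matplotlib 3.10.9 and scipy 1.17.1. Some genes are not reported here. The direction rule was tested on simulated data in which, by construction, a missing value meant no reads in either group. Whether a missing value means that in the deposited data was therefore not tested.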

Additional observations from a re-analysis of the deposited data

How the results depend on the processing

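The authors' 32 calls stand between the counts by size alone, which were 1512 genes with a size of 0.5 or more on the log2 scale in either direction, 122 at 1, 19 at 1.5 and 3 at 2. Of the called genes 18 reached 1.5 and 3 reached 2, 28 were protein-coding and 32 had a value of their own. The median of the 32 named calls was -1.45, and 1.45 if the column were read with the opposite sign. The median of snoRNA genes was 0.21, and 0.31 over those with a value of their own. Across 16426 genes Ezh2-KO over Ezh2-WT and Suz12-KO over E14-WT had Pearson's r of 0.34 and Spearman's rho of 0.29, and r of 0.23 without the 5% largest of either, a description with no p. Centring on the median of all genes, -0.01, shifts every list median by the same amount. None of the 39 could therefore move by over 0.1, and 2 no longer lay below 0. The mean in place of the median moved 9 of 39 by over 0.1, and members with a value of their own moved 9. The alternatives that leave out genes with reads in Ezh2-KO but in neither wild-type line, or use the promoter window with the highest CpG ratio, were chosen after seeing the data. Leaving out those genes moved 0 of 39 list medians by over 0.1. The cause of these differences was not tested. No paired analysis was possible because the table holds 1 value per gene and comparison and none per sample, and leaving out replicates was not run for the same reason. Depth per library is unknown, so it cannot be said which sizes of change could have been called for a given gene.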

Other observations

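Position along the genome was described without a test. Of 123 genes within 100 kb of a called gene and not called themselves, 15 (12.2%) stood at 0.5 or above or at -0.5 or below in the authors' deposited table, against 8.35% of all genes, and 6 of the 15 belong to the miR-290 cluster. Others were Hlcs at -0.79 near Ripply3, AU018091 at -0.66 near Mir292, Smad5 at -0.56 near Tgfbi, Grcc10 at -0.51 near Eno2, Uhrf1 at -0.50 near Ptprs and Rny3 at 0.93 near Rny1. Chromosome 6, which carries Ezh2, had the lowest median of 20 chromosomes at -0.07, with 39.9% of its genes above 0. The next lowest was chromosome 9 at -0.04 and the highest chromosome 13 at 0.01. Of 840 genes with a value on chromosome 6, 5 were called (0.595%, against 0.177% of all genes), Gata2, Bhlhe41, Eno2 and Klhl42 lower and Rny1 higher.

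Genes with reads in Ezh2-KO and in neither wild-type line numbered 922, of which 349 are protein-coding and 223 processed pseudogenes. None was called, and Ffar2, a receptor for short-chain fatty acids, had the largest value at 0.54.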
